A study of Mus musculus with 6 samples.

Results

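The genes of 36 aminoacyl-tRNA synthetases were examined in RNA-seq data from 77-5 cells. They were chosen by symbol, as 20 enzymes of the cytosol and 16 enzymes of the mitochondria, and all 36 were found among the 58870 genes in the files. All 36 also passed the filter on low counts that left 18264 genes for testing. The 77-5 line is a single clone of T-REx-293, which descends from HEK293 (human embryonic kidney) and makes the tetracycline repressor, and it carries a mouse Ntrk2 (TrkB) minigene made from a bacterial artificial chromosome. Rbfox1, an RNA-binding protein that controls alternative splicing, was knocked into these cells under a promoter that doxycycline switches on. There were 3 samples without treatment (No Dox, labelled as the control genotype) and 3 samples given doxycycline for 48 h (Dox, labelled for Rbfox1 expression). The dose is labelled as 0.5 mg/ml, whereas legends in the study give the same figure in micrograms. Samples of both groups carried the minigene and the inducible Rbfox1, so an effect of doxycycline and an effect of Rbfox1 cannot be told apart.

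Aminoacyl-tRNA synthetases join each amino acid to its matching tRNA, the step that fixes the meaning of the genetic code. Cells make tRNA charged in this way for ribosomes in the cytosol and, with a mostly separate set of nuclear-encoded enzymes, for ribosomes in the mitochondria. The enzymes fall into a pair of structural classes with different catalytic folds. Some of the cytosolic enzymes sit together in a multisynthetase complex, and many of them are reported targets of ATF4, the transcription factor that is switched on when amino acids run short.

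Total expected counts were between 59822964 and 65774104 per sample. RBFOX1 stood at 6.92, 8.42 and 7.26 TPM (an abundance scaled for transcript length and for the total of the sample) in No Dox and at 189.8, 188.9 and 186.4 TPM in Dox, and RBFOX2, its paralog, fell to 16.2, 17.9 and 16.8 TPM from 48.0, 46.9 and 50.1 TPM. Of the markers fixed for the line, VIM, KRT8 and KRT18 were abundant, with means of 691.9, 227.1 and 154.5 TPM in No Dox, and LHX1, PAX2 and NEFM were low, with means of 1.78, 2.43 and 0.55 TPM. Markers of leukocytes (PTPRC), endothelium (PECAM1) and hepatocytes (ALB) had means of 0.30 TPM or less in both groups, whereas those of fibroblasts (COL1A1) and skeletal muscle (MYH3) had means of 4.55 and 3.59 TPM in No Dox and 4.60 and 2.16 TPM in Dox. The part of these markers in the results was not tested. Among replicates, Dox replicate 3 stood apart, since the chi-square of gene counts per degree of freedom was 6.21 and 4.28 against the other Dox samples and 2.29 to 2.97 for the other pairs within a group. Nothing in the labels says that the samples came from separate cultures, so the p-values measure the spread between these samples, which may be technical.

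First, the levels of the enzymes were compared within No Dox, and their sums were set side by side for both groups. The cytosolic enzymes were the more abundant set in No Dox, with a median of 158.2 TPM and a range from 25.7 TPM (FARSB) to 345.5 TPM (TARS). The mitochondrial enzymes had a median of 37.6 TPM and ranged from 8.95 TPM (PARS2) to 163.4 TPM (IARS2). IARS2, the mitochondrial isoleucyl enzyme, and SARS2, the seryl enzyme, at 113.4 TPM, were the members of that set above 100 TPM. Each member was well counted, from 2499 expected counts over the 3 No Dox samples for FARS2 to 90255 for IARS. The summed abundance of the cytosolic enzymes was 3127, 3144 and 3163 TPM in No Dox and 2986, 3013 and 3032 TPM in Dox. That of the mitochondrial enzymes was 800.8, 794.0 and 791.9 TPM in No Dox and 743.0, 750.8 and 753.2 TPM in Dox. Both sums were lower in every Dox sample than in any No Dox sample. The mean of the cytosolic sum went from 3145.0 to 3010.2 TPM. Most of that drop came from VARS (means of 158.9 and 100.9 TPM) and FARSA (172.5 and 127.8 TPM). With VARS and FARSA left out, the cytosolic sums of the groups overlapped. The ratio of the cytosolic to the mitochondrial sum was 3.905, 3.96 and 3.995 in No Dox and 4.019, 4.012 and 4.025 in Dox.

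To ask how the enzymes responded, each gene was tested in a fit over all 18264 genes with edgeR. A gene was called where its adjusted p (Benjamini and Hochberg) was under 0.05. Of the 36 synthetase genes 22 fell, 3 rose and 11 were not called. Falls were called for 10 of 20 cytosolic enzymes (50.0%) and for 12 of 16 mitochondrial enzymes (75.0%), beside 26.5% of all genes tested. Without Dox replicate 3 the falls were 13 cytosolic and 12 mitochondrial enzymes. Leaving out any other single sample gave falls of 8 to 10 cytosolic and 10 mitochondrial enzymes. Rises were called for NARS and SARS among the cytosolic enzymes and for FARS2 among the mitochondrial enzymes, beside 24.9% of all genes. The median log2 fold change was -0.07 for the cytosolic enzymes and -0.12 for the mitochondrial enzymes, and 0.0045 for all genes. The synthetases are well expressed, and among the 9713 genes with a mean at or above that of PARS2 (8.31 TPM) 40.2% fell and 24.6% rose. PARS2 is the least abundant member, whereas the medians in No Dox were 158.2 TPM (cytosolic) and 37.6 TPM (mitochondrial). These genes are therefore not matched to the members by level. In bulk RNA of this kind, fewer cells with a transcript and less of it per cell cannot be told apart.

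**Figure D1:**
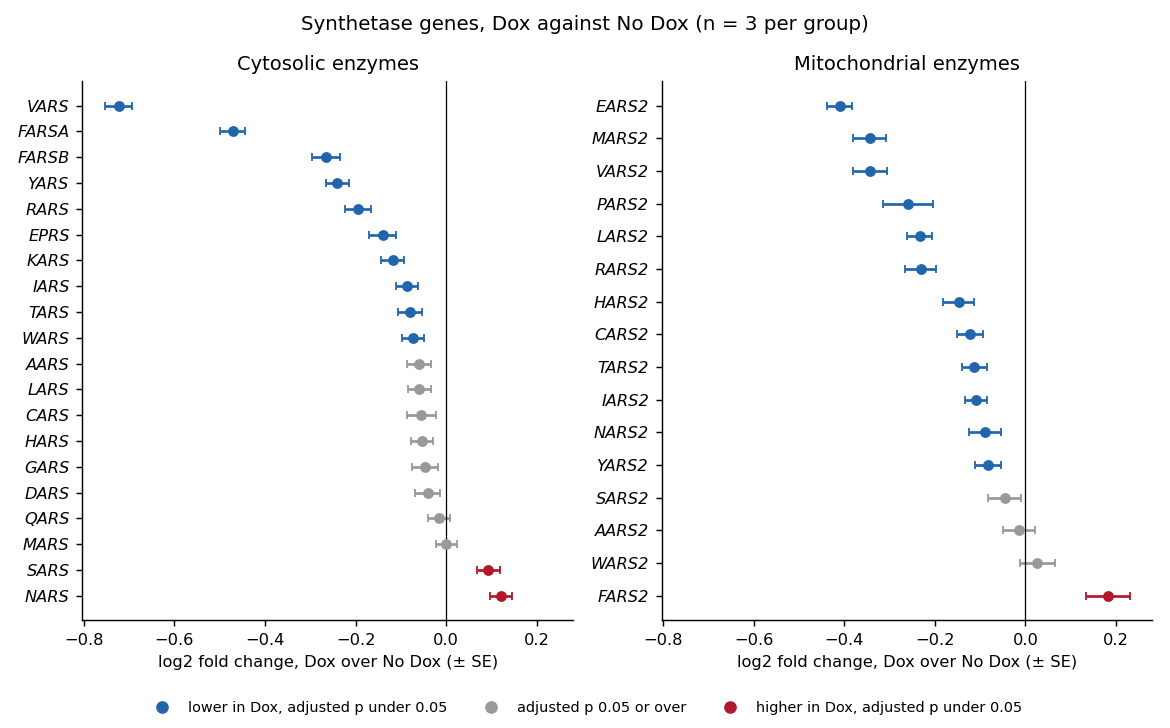
Log2 fold change of each synthetase gene in Dox over No Dox by edgeR (points, with bars for the SE; n = 3 per group), for cytosolic enzymes on the left and mitochondrial enzymes on the right. VARS at -0.72 and EARS2 at -0.41 are the lowest of their sets, and NARS, SARS and FARS2 are the genes called higher.

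Most of these differences were small. When the test required a change beyond a minimum fold of 1.2, VARS and FARSA in the cytosol and EARS2 and MARS2 in the mitochondria were lower, and the other synthetase genes were not called. By that test 6.01% of all genes were lower and 7.30% were higher. The TPM values of the groups did not overlap, with Dox below, for 8 cytosolic and 9 mitochondrial enzymes, which was so for 22.2% of all genes tested. They did not overlap, with Dox above, for 3 cytosolic and 1 mitochondrial enzymes, beside 28.0% of all genes. Without TMM normalization the split of all calls moved to 3753 lower and 5682 higher, from 4841 lower and 4543 higher, and that of the synthetases to 7 cytosolic and 9 mitochondrial enzymes lower, with the count of 3 higher.

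VARS (ENSG00000204394.13), the cytosolic valyl enzyme, which binds elongation factor subunits, showed the largest change of the 36 genes. It stood at 156.3, 159.5 and 160.8 TPM in No Dox and at 103.8, 104.8 and 94.0 TPM in Dox. The groups were far apart relative to their spread, with means of 158.9 ± 2.3 and 100.9 ± 6.0 TPM (SD, n = 3). The log2 fold change was -0.72 ± 0.03 (SE), a fall of 39.4% in normalized counts, with an adjusted p of 2.2e-11 by edgeR.

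FARSA (ENSG00000179115.11) and FARSB (ENSG00000116120.10) encode the alpha and beta subunits of the cytosolic phenylalanyl enzyme, which works as a tetramer of both. FARSA was at 169.9, 174.3 and 173.5 TPM in No Dox and at 130.3, 130.1 and 122.9 TPM in Dox. FARSB was at 25.3, 25.9 and 25.8 TPM in No Dox and at 21.1, 21.7 and 22.9 TPM in Dox. The groups were separate for both subunits, and the alpha transcript was the more abundant in all 6 samples. The log2 fold changes by edgeR were -0.47 ± 0.03 for FARSA (adjusted p = 1.2e-09) and -0.27 ± 0.03 for FARSB (adjusted p = 3.2e-06).

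YARS (ENSG00000134684.10), the tyrosyl enzyme, had 182.0, 188.3 and 188.6 TPM in No Dox and 164.0, 166.8 and 163.3 TPM in Dox. All Dox samples were below all No Dox samples, and the log2 fold change was -0.24 ± 0.02 (adjusted p = 6.6e-07 by edgeR). Smaller falls were called for RARS, the arginyl enzyme, at a log2 fold change of -0.19, for EPRS, a fused enzyme for glutamate and proline, at -0.14, for KARS, the lysyl enzyme, at -0.12, and for IARS, the isoleucyl enzyme, at -0.09. TARS, the threonyl enzyme and the most abundant of all, and WARS, the tryptophanyl enzyme, fell by 0.08 and 0.07 on the log2 scale. For EPRS, TARS and WARS the TPM values of the groups overlapped. On log2(TPM + 1) with limma-trend EPRS was not called, at a log2 fold change of -0.07 (adjusted p = 0.207), nor was IARS (adjusted p = 0.0743), and IARS was not called without TMM either (adjusted p = 0.191 by edgeR). TARS (adjusted p = 0.37) and WARS (0.985, at a log2 fold change of -0.0011) were not called by limma-trend either. Without TMM their adjusted p-values by edgeR were 0.303 and 0.41. The calls of TARS and WARS also rested on single samples. With edgeR, TARS had an adjusted p of 0.0511 without No Dox replicate 2, 0.066 without No Dox replicate 3, 0.0968 without Dox replicate 1 and 0.069 without Dox replicate 2, and WARS had 0.0968 without No Dox replicate 3 and 0.0505 without Dox replicate 1.

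NARS (ENSG00000134440.12), the asparaginyl enzyme, and SARS (ENSG00000031698.13), the seryl enzyme, which also loads serine on the tRNA for selenocysteine, rose. NARS had 151.1, 149.8 and 149.5 TPM in No Dox and 162.8, 164.0 and 170.0 TPM in Dox. SARS had 160.3, 159.6 and 159.1 TPM in No Dox and 177.3, 172.4 and 172.4 TPM in Dox. Neither gene showed overlap between the groups. The log2 fold changes by edgeR were 0.12 ± 0.02 for NARS (adjusted p = 0.00067) and 0.09 ± 0.02 for SARS (adjusted p = 0.0047), rises of 8.74% and 6.68% in normalized counts.

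The other 8 cytosolic enzymes were not called. MARS (ENSG00000166986.15), the methionyl enzyme, was nearest to no change, with 293.8, 295.4 and 279.6 TPM in No Dox and 297.2, 294.6 and 299.0 TPM in Dox, and its log2 fold change was 0.00052 ± 0.02. The alanyl (AARS), leucyl (LARS), cysteinyl (CARS), histidyl (HARS), glycyl (GARS), aspartyl (DARS) and glutaminyl (QARS) enzymes had log2 fold changes between -0.06 and -0.02. GARS and KARS each serve both compartments from 1 gene. HARS was at 119.8 ± 1.4 TPM in No Dox and at 117.8 ± 0.3 TPM in Dox, so that its TPM groups did not overlap, yet its adjusted p by edgeR was 0.089. CARS was not called, and the sign of its difference depended on the unit, as it did for some other members. Its TPM values were higher in every Dox sample (42.8, 39.3 and 38.2 TPM) than in any No Dox sample (35.6, 38.1 and 35.6 TPM), while the log2 fold change from counts was -0.05. A transcript of 135 nucleotides, CARS-216, held no counts in No Dox and 2.22, 0.89 and 0.69 expected counts in Dox, and these stood for 6.86, 3.0 and 2.10 TPM of the gene.

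**Figure D2:**
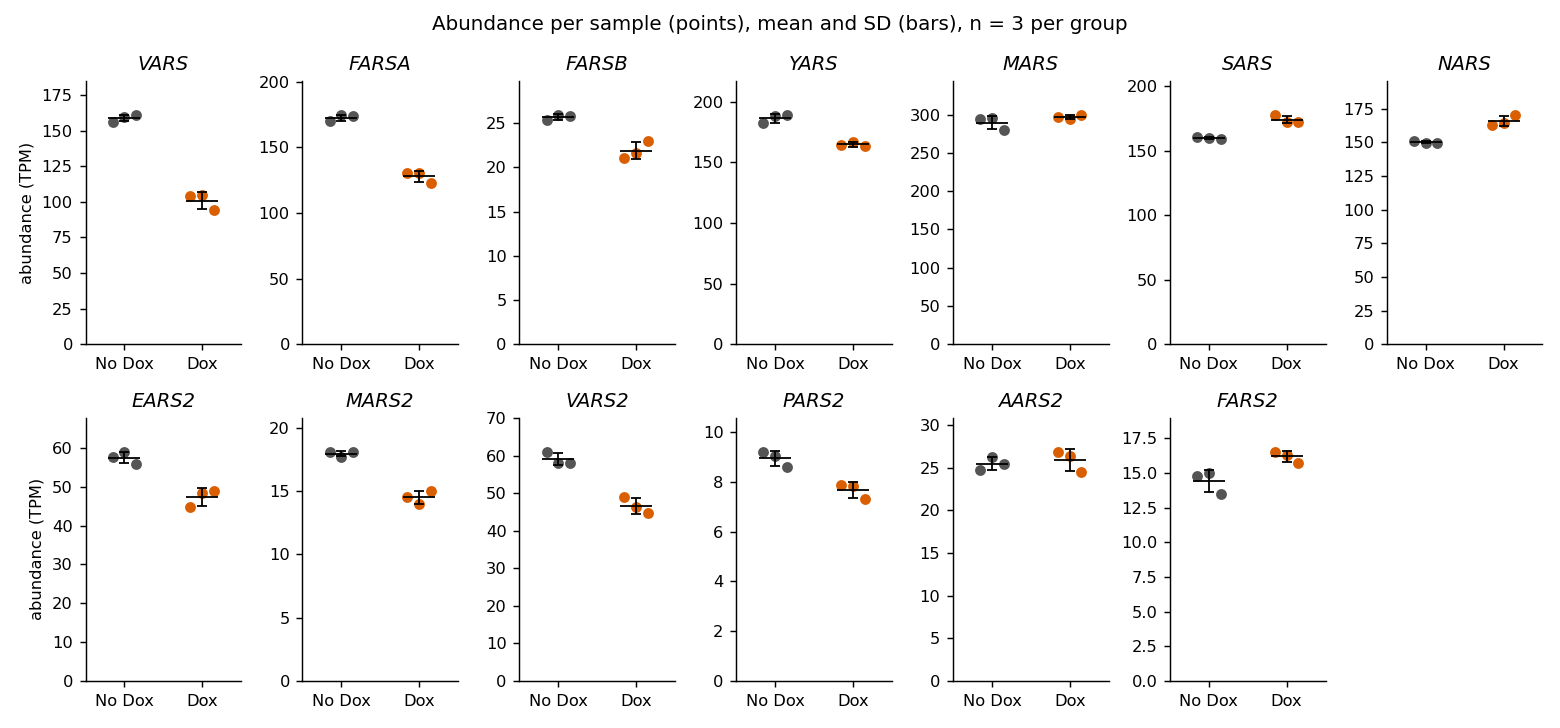
Abundance in TPM (vertical axes, from 0) of the members with the largest called changes and of those nearest to no change, with a point for each sample and bars for mean and SD (n = 3 per group). The Dox samples of VARS lie between 94.0 and 104.8 TPM, below the No Dox samples at 156.3 to 160.8 TPM, whereas those of MARS and AARS2 overlap with No Dox.

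Among the mitochondrial enzymes EARS2 (ENSG00000103356.15) fell most. It charges the tRNA for glutamate and also places glutamate on the tRNA for glutamine, where an amidotransferase converts it. EARS2 had 57.7, 59.0 and 56.0 TPM in No Dox and 44.8, 48.4 and 49.0 TPM in Dox. All Dox samples were lower, and the log2 fold change was -0.41 ± 0.03 (adjusted p = 3.2e-09 by edgeR), a fall of 24.8% in normalized counts. On log2(TPM + 1) the log2 fold change was smaller, at -0.28 (adjusted p = 0.0016 by limma-trend).

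MARS2 (ENSG00000247626.4), the methionyl enzyme, is encoded by a gene for which 1 isoform was listed. Its TPM was 18.1, 17.7 and 18.1 in No Dox and 14.6, 14.0 and 15.0 in Dox. VARS2 (ENSG00000137411.17), the valyl enzyme, had 60.9, 58.1 and 58.1 TPM in No Dox and 48.9, 46.3 and 44.8 TPM in Dox. PARS2 (ENSG00000162396.6), the prolyl enzyme and the least abundant member, had 9.20, 9.04 and 8.60 TPM in No Dox and 7.88, 7.84 and 7.30 TPM in Dox. The groups did not overlap for any of these 3 genes. By edgeR the log2 fold change was -0.34 ± 0.04 for MARS2 (adjusted p = 9.2e-07), -0.34 ± 0.04 for VARS2 (adjusted p = 1.5e-06) and -0.26 ± 0.05 for PARS2 (adjusted p = 0.00083).

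The leucyl (LARS2) and arginyl (RARS2) enzymes both had a log2 fold change of -0.23. Lesser falls were called for the histidyl (HARS2), cysteinyl (CARS2), threonyl (TARS2) and isoleucyl (IARS2) enzymes, with log2 fold changes from -0.15 to -0.11. On log2(TPM + 1) with limma-trend HARS2 (adjusted p = 0.0512), CARS2 (0.417, at a log2 fold change of -0.04) and TARS2 (0.114) were not called, and TARS2 was not called without TMM (adjusted p = 0.0583 by edgeR). NARS2, the asparaginyl enzyme, at -0.09, and YARS2, the tyrosyl enzyme, at -0.08, had TPM values that overlapped between the groups, as had CARS2. The calls of NARS2 and YARS2 were lost when any single sample other than Dox replicate 3 was left out, with adjusted p-values by edgeR from 0.0624 to 0.172 for NARS2 and from 0.0522 to 0.112 for YARS2.

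FARS2 (ENSG00000145982.12), the mitochondrial phenylalanyl enzyme, which unlike its cytosolic counterpart works as a single chain, was the mitochondrial enzyme that rose. Its TPM was 14.8, 15.0 and 13.5 in No Dox and 16.5, 16.3 and 15.7 in Dox. The groups did not overlap, and the log2 fold change was 0.18 ± 0.05 (adjusted p = 0.005 by edgeR), a rise of 13.5% in normalized counts. No call was made for SARS2 (-0.05), for AARS2 (-0.01) or for WARS2 (0.03), the seryl, alanyl and tryptophanyl enzymes. AARS2 (ENSG00000124608.5) was nearest to no change in its set, with 24.7, 26.2 and 25.4 TPM in No Dox and 26.8, 26.3 and 24.5 TPM in Dox, and the samples of both groups were interleaved.

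Next, the enzymes for the same amino acid were set side by side across the compartments. There were 17 such pairs, with EPRS entered for glutamate and for proline and FARS2 entered beside both cytosolic subunits. Both enzymes fell in 7 pairs, which were those for valine, tyrosine, arginine, glutamate, proline, isoleucine and threonine. Falls were called for 50.0% of cytosolic and 75.0% of mitochondrial enzymes, so such pairs arise without any link between the compartments. Whether the 7 pairs exceed what these shares alone would give was not tested. For valine and arginine both calls held under all settings but the minimum fold. Each of the others lost a call under some further setting, among them those of YARS2, EPRS, IARS and TARS. In 4 pairs, for leucine, cysteine, histidine and methionine, the mitochondrial enzyme fell and the cytosolic enzyme was not called. For methionine the log2 fold changes were 0.00052 in the cytosol and -0.34 in the mitochondria. For phenylalanine the calls were opposite, with FARSA at -0.47, FARSB at -0.27 and FARS2 at 0.18. For asparagine they were opposite in the other direction, with NARS at 0.12 and NARS2 at -0.09. The call of NARS2 was lost with DESeq2 (adjusted p = 0.124), without TMM (0.352 by edgeR) and on log2(TPM + 1) (0.847 by limma-trend). For tryptophan WARS fell and WARS2 was not called, and for serine SARS rose and SARS2 was not called. Alanine was the amino acid for which neither enzyme was called. The differences between the enzymes of a pair were not tested.

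**Figure D3:**
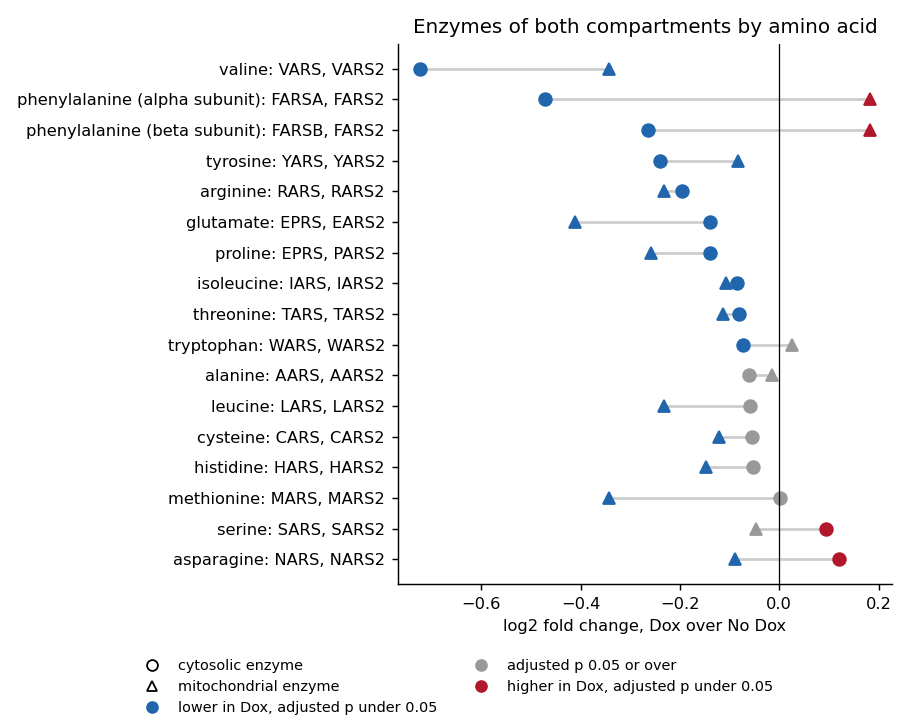
Log2 fold change in Dox over No Dox of the cytosolic enzyme (circles) and the mitochondrial enzyme (triangles) for each amino acid, coloured by the call of edgeR (n = 3 per group). Both marks lie left of 0 in blue for 7 of 17 pairs, and the lines for phenylalanine run from -0.47 and -0.27 to 0.18.

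The calls were also counted by other groupings of the enzymes. Of 19 enzymes of class I, 14 fell (73.7%) and 5 were not called, with a median log2 fold change of -0.12. EPRS, which fell and carries a domain of each class, was counted in class I. Of 17 enzymes of class II, 8 fell (47.1%) and 3 rose, with a median of -0.06. The 3 genes that rose, NARS, SARS and FARS2, thus all belong to class II. Among the 8 enzymes of the multisynthetase complex, RARS, EPRS, KARS and IARS fell, and LARS, MARS, DARS and QARS were not called. Of 13 cytosolic enzymes reported as ATF4 targets, 2 rose (NARS and SARS), 6 fell (VARS, YARS, EPRS, IARS, TARS and WARS) and 5 were not called. Of the 7 other cytosolic enzymes, 4 fell (FARSA, FARSB, RARS and KARS). All of these counts stand beside the 26.5% of all genes that fell and the 24.9% that rose. Among genes at or above the level of PARS2, 40.2% fell and 24.6% rose. The shares that fell were 50.0% in the complex, 46.2% of the ATF4 targets and 57.1% of the other cytosolic enzymes. These groups are small, and an excess over the 40.2% was not tested.

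Genes that work with the synthetases were then examined, from lists that together held 32 genes. Of these, 13 fell (40.6%), 7 rose (21.9%) and 12 were not called, beside 26.5% and 24.9% of all genes and 40.2% and 24.6% of genes at or above the level of PARS2. Without TMM normalization 13 fell and 13 rose. The 3 scaffold proteins of the multisynthetase complex all fell, with log2 fold changes of -0.13 for AIMP1, -0.20 for AIMP2 and -0.22 for EEF1E1, although the TPM values of AIMP1 overlapped between the groups (means of 55.5 ± 4.3 and 55.0 ± 3.7 TPM). The proofreading enzymes AARSD1, DTD1 and DTD2, which remove wrongly joined amino acids from tRNA, fell as well, at -0.18, -0.21 and -0.14, with overlap in TPM for DTD2. SEPSECS, which completes the synthesis of selenocysteine on its tRNA, rose by 0.18 on the log2 scale, whereas PSTK, the kinase of the step before it, at 0.13, and TARSL2, a second cytosolic threonyl enzyme, at 0.08, were not called.

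In the mitochondria, the amidotransferase that acts after EARS2 is made of QRSL1, GATB and GATC. GATC fell, at a log2 fold change of -0.13, and QRSL1 (-0.03), GATB (-0.03) and the formyltransferase MTFMT (-0.05) were not called. TUFM, the mitochondrial elongation factor that brings charged tRNA to the ribosome, fell to 362.2 ± 10.7 from 424.3 ± 5.4 TPM (log2 fold change -0.24), and its exchange factor TSFM was not called (0.01).

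The cytosolic elongation factors moved apart. EEF1B2, an exchange factor subunit, was at 874.6, 846.2 and 864.0 TPM in No Dox and at 617.5, 622.2 and 648.7 TPM in Dox, with no overlap and a log2 fold change of -0.48 ± 0.03 (adjusted p = 5.5e-10 by edgeR). EEF1A2 fell by 0.16 on the log2 scale and EEF1G rose by 0.15, while EEF1A1 (0.03) and EEF1D (0.02) were not called. The nuclear export receptors for tRNA, XPOT, and for microRNA precursors, XPO5, fell at -0.19 and -0.23.

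Since many cytosolic synthetases respond to ATF4, a list of 10 genes of the amino acid response was read from the same fit. Of these, 5 rose (50.0%), 1 fell (10.0%) and 4 were not called, beside 24.9% and 26.5% of all genes. CHAC1, which degrades glutathione, had 9.02, 8.32 and 8.24 TPM in No Dox and 13.7, 12.6 and 12.6 TPM in Dox, with a log2 fold change of 0.56 ± 0.06 (adjusted p = 1.8e-06 by edgeR). SLC7A11, the cystine transporter, rose by 0.43, DDIT3, a stress transcription factor, by 0.42, SESN2, a leucine sensor, by 0.23 and ASNS, the asparagine synthetase, by 0.13 on the log2 scale. PSAT1, of serine synthesis, fell, with a log2 fold change of -0.42. ATF4 itself (0.04), its upstream kinase EIF2AK4 (-0.00011), TRIB3 (-0.04) and SLC3A2 (0.04) were not called. The rises in this list and the 2 rises among the 13 synthetases reported as ATF4 targets are given side by side, and their relation was not tested.

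**Figure D4:**
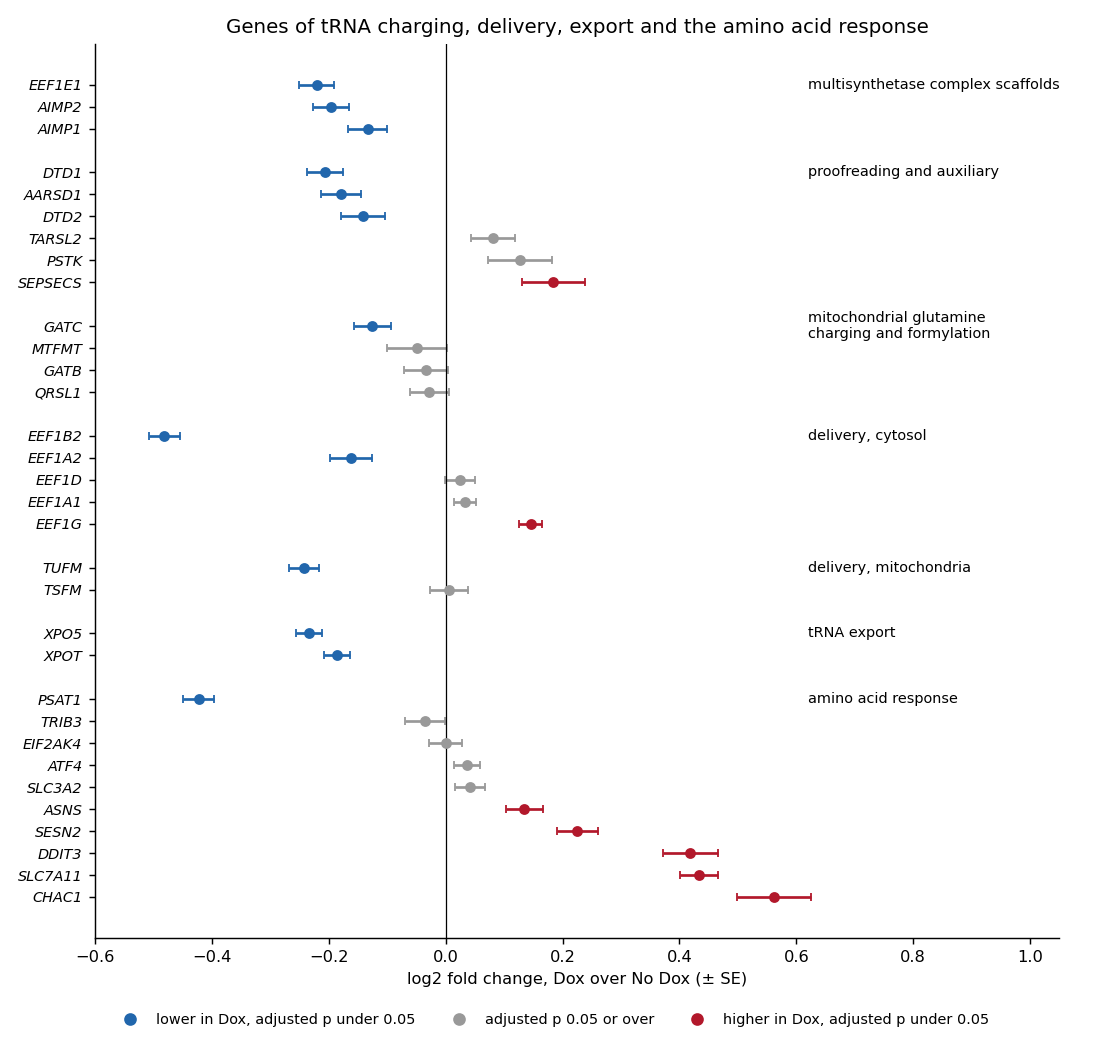
Log2 fold change in Dox over No Dox by edgeR (points, with bars for the SE; n = 3 per group) of genes of tRNA proofreading, delivery and export and of the amino acid response, ordered by list. The 3 scaffold genes lie between -0.22 and -0.13, EEF1B2 lies at -0.48, and CHAC1 at 0.56 is the highest.

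Transcripts that run beside members were looked up after values had been seen. WARS2-AS1, which the files name as antisense to WARS2, fell to 22.8, 24.0 and 23.2 TPM from 28.1, 27.8 and 32.4 TPM, with a log2 fold change of -0.60 ± 0.05 (adjusted p = 2.4e-08 by edgeR), while WARS2 was not called. GARS-DT, a divergent transcript of GARS, rose by 0.34 on the log2 scale, although its TPM values overlapped. DARS-AS1 was not called (0.02). The sources used here do not state whether the counting used strand, and without it reads of a gene and its antisense partner cannot be told apart.

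The isoforms of the synthetase genes were then tested with limma-voom over 72438 isoforms. The files list 475 isoforms of the 36 genes, of which 272 were tested. A change was called for 27 of them (9.93%), beside 12.6% of all isoforms, and 19 of the 27 fell and 8 rose. These 27 isoforms belonged to 19 genes, and they included the main isoform of genes called above, such as VARS-215, at a log2 fold change of -0.71, FARSA-201 at -0.46 and YARS-201 at -0.24. In MARS, EARS2 and TARS2 isoforms of the same gene were called in opposite directions. In each of these genes the call in 1 of the directions (MARS-201, EARS2-207 and TARS2-214) was lost when most of the samples were left out singly. When 1 sample was left out, between 15 and 19 member isoforms were called. The lowest count, 15, was without No Dox replicate 1, and the counts were 17 without No Dox replicate 3, 16 without Dox replicate 1 and 17 without Dox replicate 2.

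Isoform usage, which asks whether an isoform changed differently from the rest of its gene, could be tested for 32 of the genes. FARSB, IARS2, MARS2 and PARS2 each had a single isoform past the filter. By limma diffSplice usage changed in 11 genes (34.4%), beside 27.5% of all 12328 genes tested. These were EARS2, FARS2, HARS, LARS2, MARS, QARS, SARS, SARS2, TARS, TARS2 and VARS. By edgeR diffSpliceDGE usage changed in 4 genes (12.5%), beside 9.91% of all genes, namely EARS2, LARS2, MARS and EPRS, so that both methods named 3 genes in common. The diffSplice test assumes 1 variance for the isoforms of a gene, so more than 5% of its calls may be false. Without No Dox replicate 1 the diffSplice count was 7.

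The largest shift was in EARS2. EARS2-201, of 3961 nucleotides, made up 59.3%, 56.1% and 63.4% of the gene in No Dox and 46.6%, 45.6% and 38.7% in Dox. EARS2-207, of 3840 nucleotides, made up 13.4%, 16.0% and 11.7% in No Dox and 27.5%, 21.0% and 26.3% in Dox. Neither isoform overlapped between the groups, and the mean share of EARS2-201 went from 59.6 ± 3.6% to 43.6 ± 4.3% (SD, n = 3). In abundance EARS2-201 fell, with a log2 fold change of -0.75 (adjusted p = 0.00055 by limma-voom), and EARS2-207 rose, at 0.58 (adjusted p = 0.048). The call of EARS2-207 was lost without No Dox replicate 1 (adjusted p = 0.133), No Dox replicate 3 (0.121), Dox replicate 1 (0.125) or Dox replicate 3 (0.125).

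In TARS2 the isoform TARS2-214 rose and TARS2-204 fell. TARS2-214, of 2162 nucleotides, made up 14.4%, 16.6% and 14.3% of the gene in No Dox and 19.4%, 24.4% and 21.8% in Dox. TARS2-204, of 2727 nucleotides, made up 74.4%, 75.6% and 77.0% in No Dox and 70.3%, 67.4% and 72.0% in Dox. The groups were separate for both isoforms, and the log2 fold changes in abundance were 0.45 (adjusted p = 0.0424) and -0.19 (adjusted p = 0.0076) by limma-voom. The call of TARS2-214 was lost without No Dox replicate 1 (adjusted p = 0.133), No Dox replicate 2 (0.0571), No Dox replicate 3 (0.134), Dox replicate 2 (0.09) or Dox replicate 3 (0.0908). The usage of TARS2 was called by diffSplice (adjusted p = 0.00052) and not by diffSpliceDGE.

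MARS was not called at the level of the gene, whereas its usage was called by diffSplice (adjusted p = 3.4e-15) and by diffSpliceDGE (adjusted p = 4.5e-06). MARS-204, of 2979 nucleotides, made up 5.45%, 5.00% and 5.99% of the gene in No Dox and 9.47%, 9.03% and 9.64% in Dox. MARS-201, of 2797 nucleotides, made up 59.3%, 59.8% and 60.6% in No Dox and 55.3%, 56.5% and 54.7% in Dox. The samples of the groups did not overlap for either isoform. The log2 fold changes by limma-voom were 0.80 ± 0.06 for MARS-204 (adjusted p = 0.00042) and -0.09 ± 0.02 for MARS-201 (adjusted p = 0.0403). A short isoform of 699 nucleotides, MARS-222, was called higher (adjusted p = 0.0164 by limma-voom), with a mean of 3.19% in Dox and 1.58% in No Dox. The call of MARS-201 was lost without TMM (adjusted p = 0.0761) and when any single sample other than No Dox replicate 3 was left out (adjusted p from 0.071 to 0.121). That of MARS-222 was lost without No Dox replicate 2 (0.0661), No Dox replicate 3 (0.0652), Dox replicate 1 (0.0555) or Dox replicate 3 (0.0529).

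**Figure D5:**
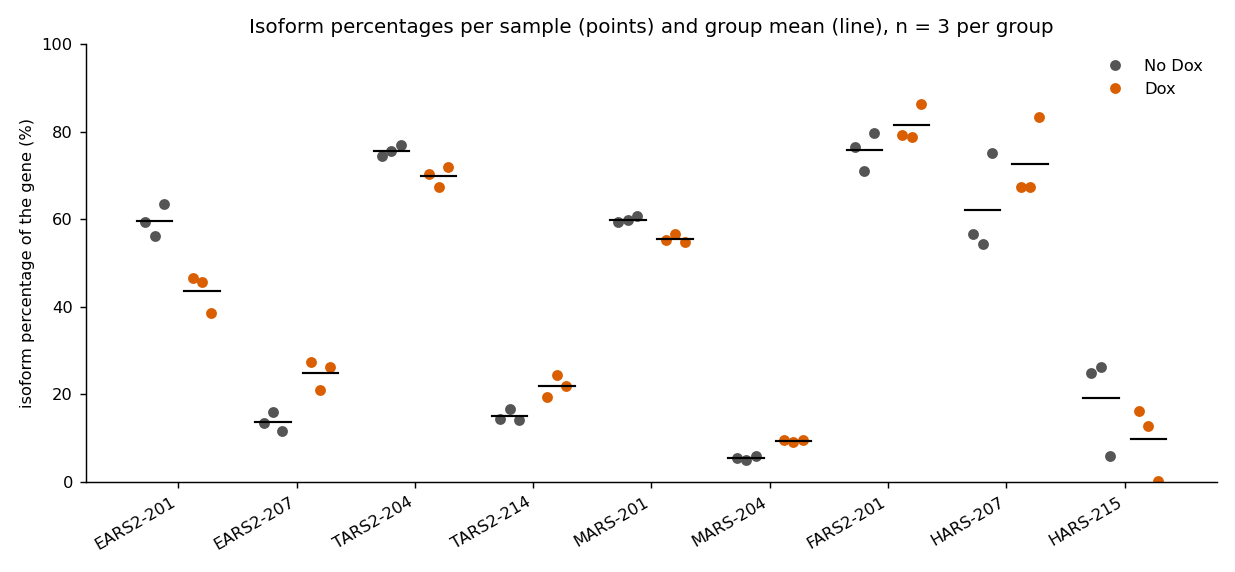
Share of each isoform in the abundance of its gene, in percent, with a point for each sample and a line for the group mean (n = 3 per group). EARS2-201 lies between 56.1% and 63.4% in No Dox and between 38.7% and 46.6% in Dox, whereas the HARS isoforms spread widely within each group.

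Shifts of at least 5 points were also seen in FARS2 and HARS, but with overlap between the groups. FARS2-201 made up 76.5%, 71.1% and 79.7% of its gene in No Dox and 79.1%, 78.7% and 86.3% in Dox. HARS-207, of 1948 nucleotides, made up 56.7%, 54.3% and 75.2% in No Dox and 67.4%, 67.3% and 83.4% in Dox. HARS-215, of 1945 nucleotides, made up 25.0%, 26.4% and 5.88% in No Dox and 16.3%, 12.8% and 0.10% in Dox. In each group replicate 3 had the highest share of HARS-207 and the lowest of HARS-215, and neither HARS isoform was called by limma-voom (adjusted p = 0.416 and 0.386). FARS2-201 rose in abundance, at a log2 fold change of 0.26 (adjusted p = 0.0483), and this call was lost when any of the 6 samples was left out (adjusted p from 0.0905 to 0.153).

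For the other genes with changed usage the largest shift was below 5 points. LARS2-203 gained 3.75 points with overlap between the groups, the share of QARS-201 dropped by 2.58 points and that of TARS-210 dropped by 3.04 points, and shifts were under 2 points in SARS, SARS2 and VARS. SARS2-205 fell from 2.57% to 0.80% of SARS2, and SARS-202 rose from 1.02% to 1.61% of SARS. VARS-216, of 863 nucleotides, fell from 2.89% to 1.11% of VARS, while VARS-215, at 77.8% and 75.9%, remained the main isoform. In EPRS, where only diffSpliceDGE called a change (adjusted p = 1.8e-05), EPRS-206 held 5.71, 0 and 5.63 expected counts in No Dox and 147.2, 142.1 and 201.8 in Dox, which was a mean of 0.87% of the gene in Dox. The groups were widely separate for EPRS-206, although its adjusted p by limma-voom was 0.0518. The share of CARS-201 dropped by 9.31 points, beside a gain of 9.72 points for CARS-216 with its few expected counts, and that of HARS2-213 was 7.01 points higher, and neither method called CARS or HARS2.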

How the data were processed

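RNA-seq libraries of 6 samples (3 No Dox, 3 Dox) were stranded mRNA libraries. Per the labels, the authors used cutadapt, STAR and RSEM with the human genome build GRCh38, with no versions stated in the sources used here. Mouse is the labelled organism, but the cells and transcripts are human. The expected counts deposited per isoform are estimates of RSEM, without normalization. The deposited TPM values are scaled by the authors for isoform length and sample total. The percent that each isoform contributes to its gene was also deposited. The deposited FPKM values were not used. RSEM divides reads among isoforms and similar genes (such as HARS and HARS2, TARS and TARSL2, and pseudogenes), so values of single isoforms are model estimates. Sequences and coordinates are not printed, since a human reference was not used here.

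For tests of genes, expected counts were added up by gene and rounded. Genes were tested with edgeR 4.0.16 (glmQLFit, glmQLFTest, TMM, filterByExpr), isoforms with limma-voom (limma 3.58.1) and usage with limma diffSplice (Simes), in R 4.3.3. Tests were two-sided over all 6 samples without covariates. P-values were adjusted by Benjamini and Hochberg over all features, with a threshold of 0.05. The SE of a gene's log2 fold change was taken from its F statistic. Fits were tested on simulated data. Depth was 59822964 to 65774104 expected counts per sample, and the common biological coefficient of variation was 2.87%. Values per sample are given for the 4 largest called rises and falls in each compartment and the member nearest to 0, and for the isoform with the largest shift in each gene with changed usage where it reached 5 points. From each list of other genes the 2 largest rises and falls were to be named. Members and lists were chosen with earlier results of these data known. Alternatives were DESeq2 1.42.0, no TMM, no filter, at least 1 CPM in 3 samples, limma-trend on log2(TPM + 1), a minimum fold of 1.2, diffSpliceDGE, the F test, isoforms of at least 10 percent, a block for the replicate number, and the omission of each sample.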

Additional observations from a re-analysis of the deposited data

How the results depend on the processing

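Of the 25 called synthetase genes 24 kept their direction under all 13 settings, the exception being YARS2 (0.0075 on the log2 scale with log2(TPM + 1)), and 16 also kept their call under all settings but the minimum fold. On log2(TPM + 1), 6 cytosolic and 7 mitochondrial enzymes were lower. With a minimum fold of 1.2, 2430 genes were called, 2 cytosolic and 2 mitochondrial enzymes were lower and 0 in either set were higher (edgeR glmTreat, also 0 at an unadjusted p under 0.05), and 2 genes of the other lists were lower and 3 higher. Without TMM 13 genes of those lists were higher, and the median of all genes moved to 0.05. Leaving out 1 sample gave 5518 to 6441 changed isoforms, 15 to 19 member isoforms and 7 to 12 members with changed usage, and DESeq2 gave 15054 isoforms, 44 of them of members. By diffSpliceDGE 1222 genes and 4 members changed in usage, and 4 members did with isoforms of at least 10 percent.

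Apart from YARS2, the reversed values were of genes that were not called. Without TMM the log2 fold change was 0.0067 for DARS, 0.00068 for GARS, 0.032 for QARS, 0.033 for AARS2 and 0.0017 for SARS2. On log2(TPM + 1) it was 0.13 for CARS, 0.029 for DARS, 0.053 for QARS, 0.022 for AARS2 and 0.0094 for SARS2. MARS was at -0.0045 with DESeq2 and -0.014 without the filter, and AARS2 at 0.00074 with at least 1 CPM. With 1 sample left out, MARS ranged from -0.013 to 0.0097, AARS2 from -0.035 to 0.022 and WARS2 from -0.012 to 0.048. The cause was not tested.

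The deviations of same-numbered samples correlated only weakly, at 0.03 to 0.06, yet each sample correlated best with its own number. Samples with different numbers correlated at -0.038 to -0.0024. Whether the samples were paired cannot be settled by such weak correlations. With the replicate number as a block 9805 genes, 12 cytosolic and 12 mitochondrial enzymes lower, 7249 isoforms (22 of members) and 9 members with changed usage were called, and EARS2-207 (adjusted p = 0.111 by limma-voom) and FARS2-201 (0.107) were not.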
